A study of Mus musculus with 6 samples.

Results

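The genes described here encode 10 enzymes that make or break down prostaglandins, namely Pla2g4a, Ptgs1, Ptgs2, Ptges, Ptges2, Ptges3, Ptgis, Ptgds, Tbxas1 and Hpgd. They were taken by gene symbol from a table of 54532 mouse genes, whatever their values. RNA had been sequenced from spleen T cells of C57BL/6 mice aged 6 to 8 weeks, isolated as pan-T cells, cultured with 10 ng/mL IL-2 and activated for 72 h with anti-CD3/CD28 beads. These T cells were then kept together with ID8, a mouse ovarian cancer cell line, and collected. In 3 libraries (CIS in the labels, here cisplatin) the ID8 cells had first been exposed to 40 µM cisplatin, and in 3 libraries (WT in the labels, here control) to PBS. Both groups thus held activated T cells that had met ID8 cells, and the sources used here describe no T-cell library without ID8 cells and no step that removed ID8 cells before RNA extraction. The comparison asked how the T-cell transcriptome differed when the tumour cells had met the drug.

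Prostaglandins are short-lived lipid signals made from arachidonic acid. A phospholipase releases the fatty acid from membranes, a cyclooxygenase turns it into the unstable intermediate PGH2, and terminal synthases convert PGH2 into PGE2, prostacyclin, PGD2 or thromboxane. In tumours, PGE2 is known for restraining T cells through its receptors EP2 and EP4, and 15-hydroxyprostaglandin dehydrogenase ends the signal by oxidising it.

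Values are FPKM, fragments divided by gene length and by library size. For the enzymes this length was that of all annotated exons joined, not of the transcripts expressed. Levels of 2 genes may thus be compared per length only as far as that annotation holds. The libraries held 30606569 to 32169496 reads on genes. T cells were well represented, since all 18 T-cell markers passed the expression filter and Cd3e, a chain of the T-cell receptor complex, stood at 39.7 ± 0.143 FPKM with cisplatin against 31.9 ± 0.700 FPKM in the controls (SD, n = 3 each). Transcripts of other cells were present too. The summed level of 18 ID8 markers was 231 to 238 FPKM in the cisplatin libraries and 1563 to 1635 FPKM in the control libraries. Of these, 14 were tested and 13 were lower with cisplatin, beside 29.0% of all tested genes. The exception was Epcam (1.39 against 1.48 FPKM, adjusted p = 0.78, limma). Among those too low to test, Krt7 and Muc16 were lower without overlap, and the groups of Igfbp5 and Tagln overlapped. The keratin gene Krt19 stood at 52.9 ± 1.46 against 646 ± 18.1 FPKM (SD, n = 3 each). The 18 T-cell markers were all higher with cisplatin, beside 27.5% of all tested genes, with a summed level of 2464 to 2535 against 1550 to 1668 FPKM. The RNA of several cell types was therefore read together, and fewer cells of a type could not be told apart from less RNA per cell.

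In the comparison of cisplatin with control libraries, 4 of the 10 enzymes were called lower and none was called higher. A call needed an adjusted p-value under 0.05 (limma on log2(FPKM + 0.1), Benjamini-Hochberg over 15874 genes) and a change of at least 2-fold. The called enzymes were Pla2g4a, Ptgs1, Ptgs2 and Ptgis, the phospholipase, both cyclooxygenases and the prostacyclin synthase. Among all tested genes 12.8% were called lower and 4.11% higher. Without the 2-fold minimum, Ptges and Ptges3 were lower as well, which made 6 of the 8 tested enzymes, beside 29.0% of all tested genes, while none was higher, beside 27.5% of all tested genes. In either direction, 56.5% of all tested genes passed. The enzymes Ptges2 and Tbxas1 did not pass, and Ptgds and Hpgd were too low to be tested. For 7 of the 10 enzymes every cisplatin library lay below every control library, and for Tbxas1 every cisplatin library lay above. Among all tested genes, 32.3% separated downward and 31.9% upward. The median log2 fold change was -1.15 over the 8 tested enzymes and 0.03 over all tested genes.

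**Figure D1:**
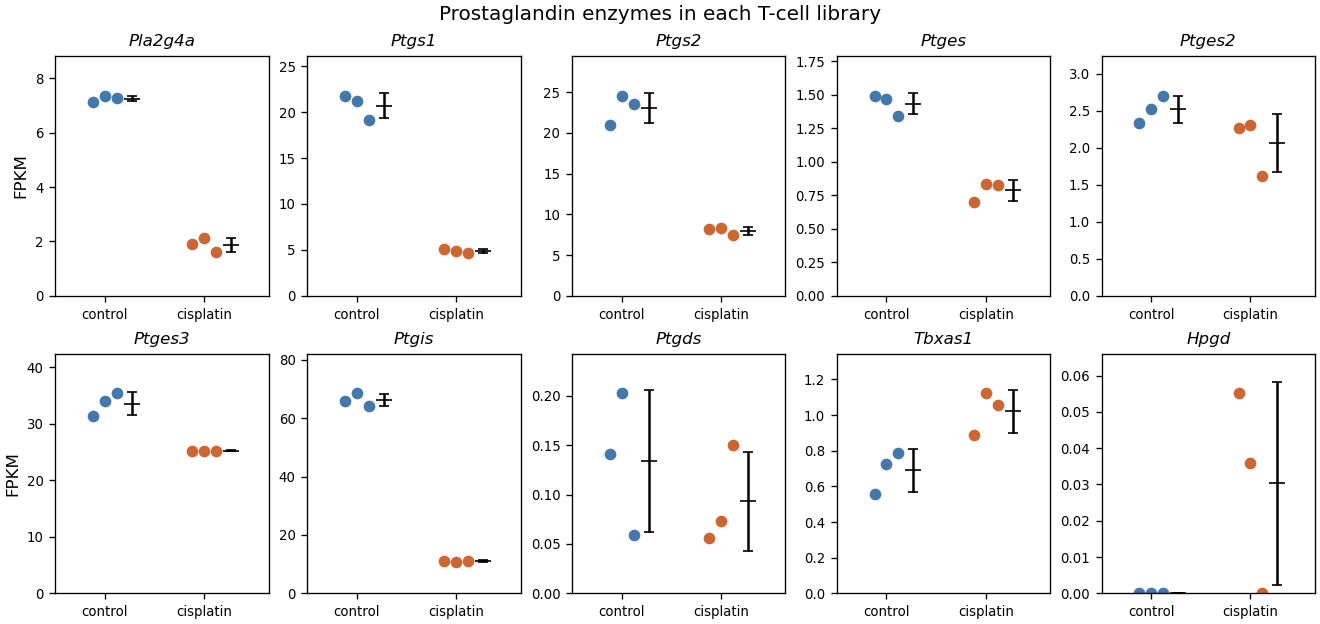
FPKM of each of the 10 enzymes in the 3 control libraries (blue points) and the 3 cisplatin libraries (orange points), each panel with its own vertical axis from 0, and black bars for the mean ± SD. Ptgis, the most abundant in the controls at 66.2 FPKM, stood at 11.1 FPKM with cisplatin, and Tbxas1 is the panel in which all 3 cisplatin points lie above the control points at a level the test did not separate.

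Release of arachidonic acid is the task of Pla2g4a, the calcium-dependent cytosolic phospholipase A2. The gene (ENSMUSG00000056220) lies on chromosome 1 from 149829618 to 149961290 (GRCm38, minus strand). Its level was 1.90, 2.11 and 1.61 FPKM in the cisplatin libraries and 7.14, 7.35 and 7.26 FPKM in the controls. The groups lay far apart and the control libraries were almost level with each other. The means of 1.87 ± 0.253 and 7.25 ± 0.104 FPKM (SD, n = 3 each) differed 3.87-fold, with a log2 fold change of -1.91 (SE 0.10, adjusted p = 9.9e-06, limma with Benjamini-Hochberg adjustment). Of all tested genes, 6.25% had a log2 fold change below that of Pla2g4a.

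The cyclooxygenases Ptgs1 and Ptgs2 perform the committed step. Ptgs1 is known as the constitutive form and Ptgs2 as the form induced by growth factors and inflammatory signals. Ptgs1 (ENSMUSG00000047250) lies on chromosome 2 from 36230426 to 36252272 (GRCm38, plus strand), and Ptgs2 (ENSMUSG00000032487) on chromosome 1 from 150100031 to 150108227 (GRCm38, plus strand). Their start regions are given as a description, and any part of these sequences in the lower levels was not tested. Each run holds 250 bases before and 50 bases after the start of the RefSeq gene (GRCm38.p6), at chr2:36230176-36230475 for Ptgs1 and chr1:150099781-150100080 for Ptgs2, both on the plus strand, and capitals mark the motifs found.
Ptgs1: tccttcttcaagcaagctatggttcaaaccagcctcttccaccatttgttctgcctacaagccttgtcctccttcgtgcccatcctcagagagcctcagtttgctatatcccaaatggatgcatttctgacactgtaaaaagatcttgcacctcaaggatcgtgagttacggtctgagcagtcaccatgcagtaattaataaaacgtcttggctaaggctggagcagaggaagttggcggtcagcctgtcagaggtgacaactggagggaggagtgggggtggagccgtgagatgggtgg
Ptgs2: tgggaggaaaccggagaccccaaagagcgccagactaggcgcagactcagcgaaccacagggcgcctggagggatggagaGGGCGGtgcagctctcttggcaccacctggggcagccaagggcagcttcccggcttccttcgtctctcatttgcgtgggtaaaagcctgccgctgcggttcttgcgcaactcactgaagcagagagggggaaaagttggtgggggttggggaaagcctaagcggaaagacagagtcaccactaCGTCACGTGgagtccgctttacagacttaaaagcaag
The motifs searched on both strands were the E-box CACGTG, the CRE half-site TGACG, the AP-1 site TGANTCA, the GC box GGGCGG, the TATA box TATAAA and the NF-kB site. In the Ptgs2 run a GC box began 170 bases before the start (-170), and a CRE half-site on the opposite strand, from base 13 after the start, overlapped an E-box from base 16. The Ptgs1 run held none of these letters. Among 32851 RefSeq promoters of the same length, 7.15% held the E-box, 20.8% the CRE half-site, 35.7% the GC box, 7.81% the AP-1 site, 13.6% the TATA box and 8.46% the NF-kB site. The Ptgs2 run was richer in G and C (59.3%) than the Ptgs1 run (50.7%).

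Ptgs1 stood at 5.13, 4.90 and 4.64 FPKM in the cisplatin libraries and at 21.8, 21.2 and 19.2 FPKM in the controls. No cisplatin library came near a control library. The means were 4.89 ± 0.246 and 20.7 ± 1.35 FPKM (SD, n = 3 each), 4.23-fold apart, with a log2 fold change of -2.06 (SE 0.07, adjusted p = 8.8e-07, limma with Benjamini-Hochberg adjustment). An unclassified gene on the opposite strand, Gm43621, shares 148 exonic bases with Ptgs1, and its mean was 0.0457 FPKM with cisplatin and 0.316 FPKM in the controls. Reads in these bases could not be told apart, since the sources used here do not give whether strand was counted.

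Ptgs2 stood at 8.20, 8.36 and 7.45 FPKM with cisplatin and at 21.0, 24.5 and 23.6 FPKM in the controls. The groups did not overlap, and the control libraries spread more widely than the cisplatin libraries. The means of 8.0 ± 0.485 and 23.0 ± 1.83 FPKM (SD, n = 3 each) differed 2.88-fold, with a log2 fold change of -1.51 (SE 0.07, adjusted p = 5.9e-06, limma with Benjamini-Hochberg adjustment). The balance of both forms could also be read within each library. The ratio of Ptgs2 to Ptgs1 was 1.60, 1.71 and 1.61 in the cisplatin libraries and 0.965, 1.16 and 1.23 in the control libraries. On the log2(FPKM + 0.1) scale the ratio was 0.55 higher with cisplatin, and the groups did not overlap. The two-sided exact permutation test gave p = 0.1, the smallest that 3 libraries against 3 allow, and p = 0.125 after adjustment over the 5 ratios tested.

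PGE2 is formed by 3 synthases. Ptges encodes the inducible microsomal form that works with Ptgs2, Ptges2 the second microsomal form, and Ptges3 the cytosolic form, which is also the HSP90 co-chaperone p23. Ptges (ENSMUSG00000050737) lies on chromosome 2 from 30889471 to 30929863 (GRCm38, minus strand). Its start region is shown as that of the inducible PGE2 synthase, to be set beside the Ptgs2 run, at chr2:30903248-30903547 on the minus strand (RefSeq, GRCm38.p6), with the same span around the start and capitals for motifs.
Ptges: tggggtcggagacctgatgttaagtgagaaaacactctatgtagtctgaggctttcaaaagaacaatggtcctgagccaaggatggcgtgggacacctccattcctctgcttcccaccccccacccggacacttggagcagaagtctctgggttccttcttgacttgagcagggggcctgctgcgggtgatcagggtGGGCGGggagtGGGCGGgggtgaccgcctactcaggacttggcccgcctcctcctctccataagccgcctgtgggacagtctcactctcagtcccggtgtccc
The run held a pair of GC boxes, beginning 53 and 42 bases before the start (-53 and -42), and none of the other motifs searched. It lies within the gene as the table delimits it.

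The level of Ptges was low, at 0.700, 0.837 and 0.824 FPKM with cisplatin and 1.49, 1.47 and 1.34 FPKM in the controls. These values rested on 89, 109 and 105 reads in the cisplatin libraries and on 176, 173 and 162 reads in the controls. No cisplatin library reached the lowest control library. The means of 0.787 ± 0.0758 and 1.43 ± 0.0797 FPKM (SD, n = 3 each) differed 1.82-fold, with a log2 fold change of -0.79 (SE 0.16, adjusted p = 0.005, limma with Benjamini-Hochberg adjustment). Ptges was therefore lower at the adjusted p-value but fell short of the 2-fold minimum.

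Ptges2 (ENSMUSG00000026820; chromosome 2, 32395896 to 32405772, GRCm38, plus strand) stood at 2.27, 2.30 and 1.62 FPKM with cisplatin and at 2.33, 2.53 and 2.70 FPKM in the controls. The highest cisplatin library and the lowest control library nearly touched. The log2 fold change was -0.29 with a 95% interval from -0.66 to 0.08 (adjusted p = 0.16, limma with Benjamini-Hochberg adjustment).

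Ptges3 (ENSMUSG00000071072; chromosome 10, 128058954 to 128077272, GRCm38, plus strand) was the most abundant of the enzymes in the cisplatin libraries. It stood at 25.3, 25.3 and 25.2 FPKM there and at 31.4, 34.0 and 35.4 FPKM in the controls. All cisplatin libraries lay below the controls and were almost equal. The fall was 1.33-fold, with a log2 fold change of -0.41 (SE 0.05, adjusted p = 0.00039, limma with Benjamini-Hochberg adjustment). The short processed copy Ptges3-ps, of 480 bases, was listed at 43.5 ± 1.42 FPKM with cisplatin and 53.5 ± 9.30 FPKM in the controls (SD, n = 3 each). How reads matching both were counted is not given in the sources used here, so the value of Ptges3 is uncertain to that extent.

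Within libraries, Ptges was set against the other PGE2 synthases. The difference between Ptges and Ptges3 on the log2(FPKM + 0.1) scale was 0.38 more negative with cisplatin (a change of -0.38), with no overlap between groups (p = 0.1, adjusted p = 0.125, two-sided exact permutation test). Against Ptges2 the change was -0.50, and here the groups overlapped (exact permutation test, p = 0.2, adjusted p = 0.2). Neither change passed, which this design cannot reach by an exact permutation test, and whether they differed from each other was not tested.

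**Figure D2:**
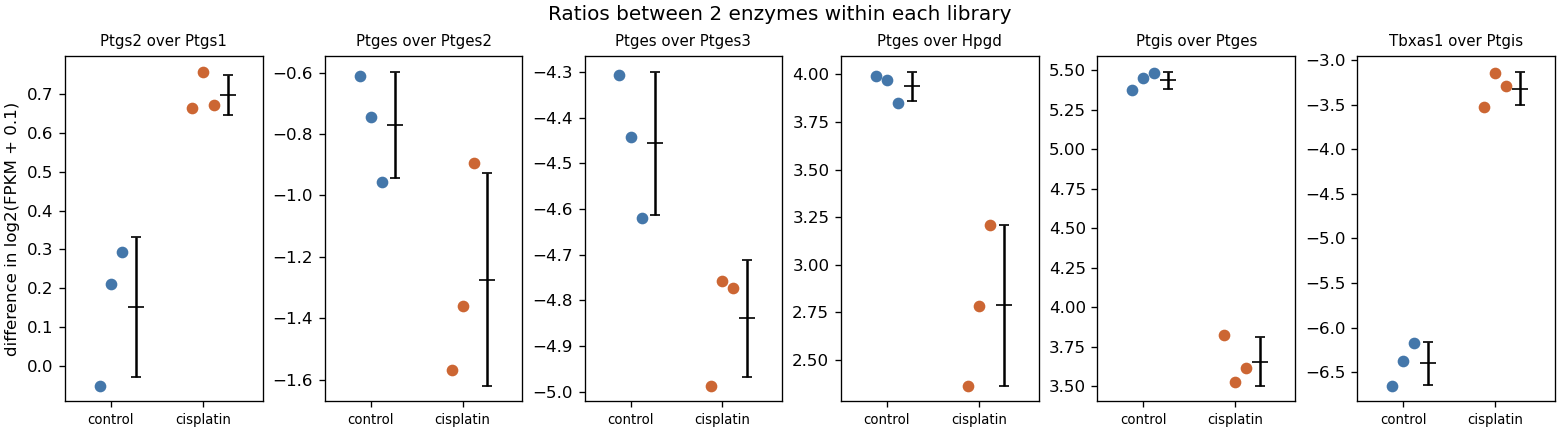
Difference between the log2(FPKM + 0.1) values of 2 enzymes in each control library (blue) and cisplatin library (orange), with black bars for the mean ± SD and a separate vertical axis for each pair. The groups overlap for Ptges over Ptges2 and are apart for the other pairs. The pair Tbxas1 over Ptgis was added after the values were seen and has no test.

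Prostacyclin is made by Ptgis, a cytochrome P450 known from vessel walls and mesenchymal cells. The gene (ENSMUSG00000017969) lies on chromosome 2 from 167191805 to 167240604 (GRCm38, minus strand). It was the most abundant of the 10 enzymes in the controls, at 65.9, 68.5 and 64.3 FPKM, and stood at 11.2, 10.7 and 11.2 FPKM in the cisplatin libraries. Each group was tight and the distance between them was the greatest among the tested enzymes. The means of 11.1 ± 0.297 and 66.2 ± 2.13 FPKM (SD, n = 3 each) differed 5.99-fold, with a log2 fold change of -2.57 (SE 0.04, adjusted p = 8.3e-08, limma with Benjamini-Hochberg adjustment). Only 2.92% of all tested genes had a lower log2 fold change. The antisense transcript 1110018N20Rik shares 156 exonic bases with Ptgis and was listed at 0.0902 FPKM with cisplatin and 0.147 FPKM in the controls.

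The excess of Ptgis over Ptges was smaller with cisplatin. Ptgis stood at 44.2, 46.7 and 47.9 times the FPKM of Ptges in the control libraries and at 16.1, 12.8 and 13.6 times in the cisplatin libraries. The groups were far apart, with a difference of -1.78 on the log2(FPKM + 0.1) scale (two-sided exact permutation test, p = 0.1, adjusted p = 0.125).

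Thromboxane A2, which constricts vessels and activates platelets, is made by Tbxas1, an enzyme known from platelets and macrophages. Tbxas1 (ENSMUSG00000029925) lies on chromosome 6 from 38875404 to 39084585 (GRCm38, plus strand). Its level was 0.887, 1.12 and 1.06 FPKM with cisplatin and 0.557, 0.726 and 0.788 FPKM in the controls, from 261, 338 and 311 reads against 152, 198 and 220. Each cisplatin library was above each control library, by a small margin for the lowest. The means of 1.02 ± 0.121 and 0.690 ± 0.120 FPKM (SD, n = 3 each) gave a log2 fold change of 0.51 with a 95% interval from -0.01 to 1.03 (adjusted p = 0.084, limma with Benjamini-Hochberg adjustment). The difference passed after quantile normalization (0.68, adjusted p = 0.032), with limma's voom on rebuilt reads (0.66, adjusted p = 0.0012) and without the variance trend (0.51, adjusted p = 0.031), and it turned to -0.06 (adjusted p = 0.81) when libraries were centred on the T-cell identity genes. The antisense gene Gm42962 shares 144 exonic bases with Tbxas1 and was at 0 FPKM in every control library.

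Because Tbxas1 and Ptgis lay at opposite ends of the tested enzymes, their balance is described without a test, the pair having been chosen after the values were seen. The FPKM ratio of Tbxas1 to Ptgis was 0.0790, 0.105 and 0.0941 in the cisplatin libraries and 0.00844, 0.0106 and 0.0123 in the controls. By FPKM and by reads, Ptgis remained above Tbxas1 in all 6 libraries.

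Ptgds, the lipocalin-type PGD2 synthase known from brain and other barrier tissues, was near the limit of detection. The gene (ENSMUSG00000015090; chromosome 2, 25466709 to 25470046, GRCm38, minus strand) had 3, 4 and 8 reads in the cisplatin libraries and 7, 10 and 3 reads in the controls. The groups overlapped, and any difference was not detectable at this depth. Hpgd, the dehydrogenase that inactivates PGE2, was lower still. The gene (ENSMUSG00000031613; chromosome 8, 56294585 to 56321043, GRCm38, plus strand) had 3, 2 and 0 reads in the cisplatin libraries and 0 reads in each control library. A count of 0 allows up to 3 reads, here 0.0538 to 0.0595 FPKM, so both groups were at or under the floor and no fold change is given. The difference between Ptges and Hpgd changed by -1.15 on the log2(FPKM + 0.1) scale (two-sided exact permutation test, p = 0.1, adjusted p = 0.125), a value that rests on the pseudocount because Hpgd was at its floor.

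The order of the levels also differed between the groups, and it depends on the gene lengths used. Tbxas1 was divided by 9094 bases and Ptges by 3931. In the controls Tbxas1 had 152, 198 and 220 reads and Ptges 176, 173 and 162. In the controls the order from the top was Ptgis (66.2 FPKM), Ptges3 (33.6 FPKM), Ptgs2 (23.0 FPKM), Ptgs1 (20.7 FPKM), Pla2g4a (7.25 FPKM), Ptges2 (2.52 FPKM), Ptges (1.43 FPKM), Tbxas1 (0.690 FPKM), Ptgds (0.134 FPKM) and Hpgd (0 FPKM). Of these neighbours, Ptgs2 and Ptgs1 overlapped between libraries, Ptgds in 1 control library lay within the floor that 0 reads of Hpgd allow, and the others did not overlap. With cisplatin, Ptges3 (25.2 FPKM) came first and Ptgis (11.1 FPKM) next, and Tbxas1 (1.02 FPKM) stood above Ptges (0.787 FPKM). Ptges2 (2.06 FPKM) and Pla2g4a (1.87 FPKM) overlapped there, Ptgds and Hpgd were both near their floors, and the other neighbours did not overlap. The 10 enzymes summed to 152 to 160 FPKM in the control libraries and 53.7 to 55.7 FPKM in the cisplatin libraries.

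The other genes of the pathway were mixed. Of 45 listed, 26 were tested, 12 fell and 10 rose past the adjusted p-value of 0.05 (limma, Benjamini-Hochberg), beside 29.0% lower and 27.5% higher among all tested genes, and their median log2 fold change was -0.20 beside 0.03. Among further genes listed for the release of arachidonic acid, 6 were lower and 4 higher of 10 tested, again against 29.0% and 27.5% of all tested genes. Of these, Pla2g3 (0.361 with cisplatin against 1.14 FPKM in the controls) reached the filter only through the control libraries. Mgll (0.836 against 0.400 FPKM) reached it only through the cisplatin libraries, so for both the filter favoured the direction counted. The secreted phospholipase genes Pla2g2a and Pla2g2f and the cytosolic Pla2g4d were at 0 in every library. The diacylglycerol lipase genes Dagla (log2 fold change -1.96) and Daglb (-1.08) and the secreted phospholipase Pla2g3 (-1.42) were called lower. With log2(FPKM + 1), Daglb (-0.71) and Pla2g3 (-0.65) were below the 2-fold minimum, as was Daglb after quantile normalization (-0.91). All 3 genes listed here for the return of arachidonic acid to membranes were lower, beside 29.0% of all tested genes. Only Acsl4, which couples the fatty acid to coenzyme A, was called, at 28.3 ± 1.15 against 81.7 ± 1.86 FPKM (SD, n = 3 each; log2 fold change -1.53). The log2 fold changes of Lpcat3 (-0.51) and Mboat7 (-0.27) were smaller.

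Among other enzymes that convert PGH2 or PGE2, 1 was lower and 3 were higher of 5 tested, against 29.0% and 27.5% of all tested genes. Hpgds, the haematopoietic PGD2 synthase known from mast cells and Th2 cells, stood at 2.32, 2.94 and 2.59 FPKM with cisplatin and 1.09, 0.955 and 1.16 FPKM in the controls. The groups did not overlap, and the log2 fold change was 1.22 (SE 0.14, adjusted p = 0.00036, limma with Benjamini-Hochberg adjustment). It was below the 2-fold minimum with log2(FPKM + 1), at 0.80, and with the centring on T-cell genes, at 0.64. Hpgds therefore held most of the PGD2 synthase reads in every library, since Ptgds was near its floor. Cbr3, a carbonyl reductase, was called lower (log2 fold change -1.57).

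In transport and later breakdown, 2 of 4 tested genes were lower and none was higher, to be read against the same 29.0% and 27.5%. Ptgr1, a reductase that acts on prostaglandins after Hpgd and also inactivates leukotriene B4, stood at 12.1, 10.5 and 11.4 FPKM with cisplatin and 85.3, 87.2 and 84.1 FPKM in the controls. The groups were further apart than for any of the 10 enzymes, with a log2 fold change of -2.90 (SE 0.05, adjusted p = 1.3e-07, limma with Benjamini-Hochberg adjustment). The exporter Abcc4 stood at 6.12 ± 0.161 against 6.96 ± 0.454 FPKM (SD, n = 3 each), with a log2 fold change of -0.18 that lay at the threshold (adjusted p = 0.05 after rounding, limma with Benjamini-Hochberg adjustment) and was not counted as passed. It passed in 3 of 17 alternatives, with values from -0.75 to -0.02. The uptake carrier Slco2a1 was at 0.0846 FPKM with cisplatin and 0.102 FPKM in the controls, below the filter.

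Among the receptors, 3 of 4 tested were higher and none was lower, beside 27.5% higher and 29.0% lower among all tested genes. A further 5 of the 9 listed were under the filter. Among these, Ptgfr was lower (0.0377 against 0.532 FPKM) and Ptger1 was higher (0.628 against 0.319 FPKM), each without overlap. The groups of the rest overlapped. The EP2 gene Ptger2 stood at 9.65, 9.97 and 9.64 FPKM with cisplatin and 4.19, 4.34 and 3.95 FPKM in the controls. These groups were clearly apart, with a log2 fold change of 1.21 (SE 0.06, adjusted p = 4.6e-06, limma with Benjamini-Hochberg adjustment). Ptger2 was the only tested receptor gene past the 2-fold minimum. With T-cell identity genes as the centre of each library its log2 fold change was 0.64 and the call was lost. The 18 T-cell markers, all higher with cisplatin, had a median log2 fold change of 0.58, and their part in the receptor values was not tested. The EP4 gene Ptger4 stood at 3.04 ± 0.241 against 1.90 ± 0.0936 FPKM (SD, n = 3 each), with a log2 fold change of 0.65 (adjusted p = 0.0014, limma with Benjamini-Hochberg adjustment), and of 0.07 (adjusted p = 0.53) under that centring.

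**Figure D3:**
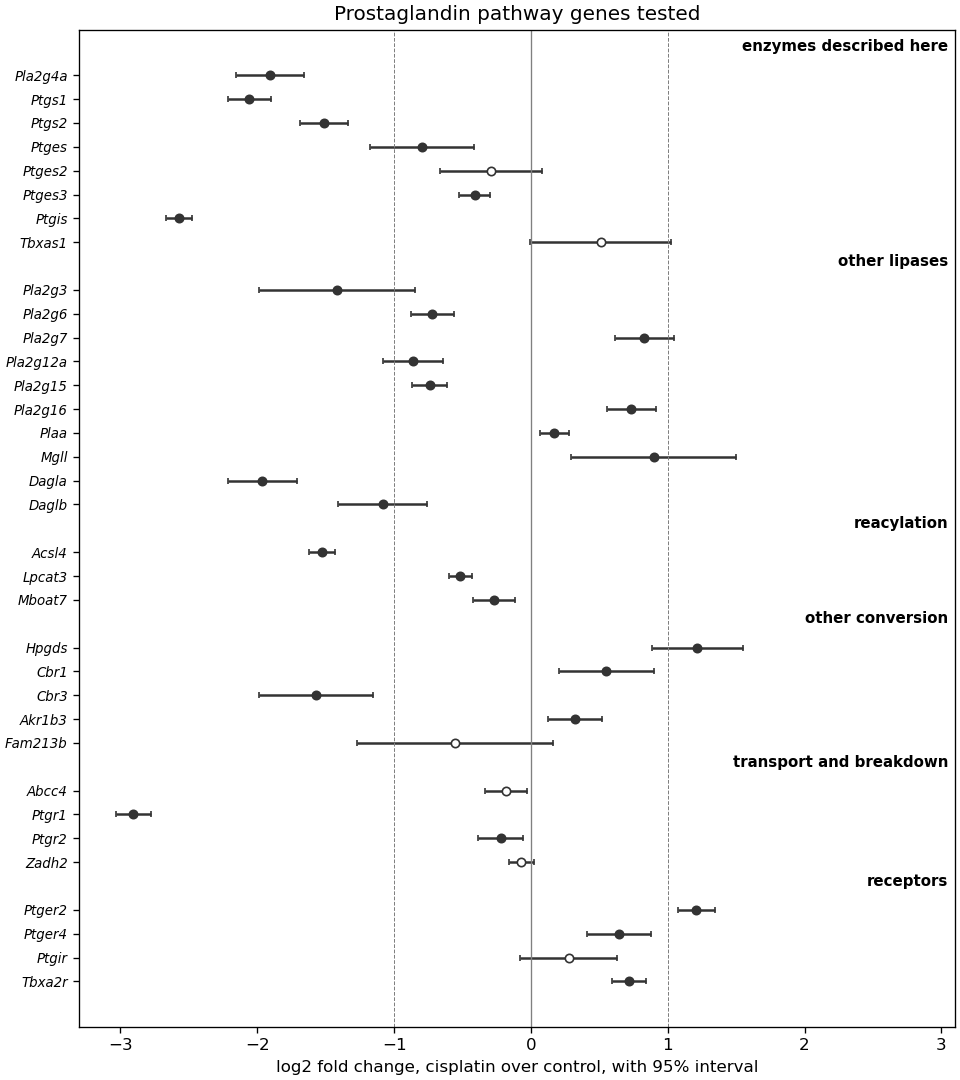
Log2 fold change of cisplatin over control libraries, on the log2(FPKM + 0.1) scale, for the 8 tested enzymes and the 26 other tested pathway genes, grouped by role, with 95% intervals. Filled points passed an adjusted p-value under 0.05 and dashed lines mark 2-fold. The group labelled other lipases holds all tested genes listed for the release of arachidonic acid, not lipases only. Of the enzymes, 6 filled points lie left of 0, Ptgr1 at -2.90 lies furthest left, and the 3 filled receptor points lie right of 0.

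Markers of other cells moved between the groups and are given beside these changes, and their part in any of them was not tested. The counts below are to be read beside 27.5% higher and 29.0% lower among all tested genes. For Tbxas1, 8 of 10 tested macrophage markers were higher with cisplatin and 1 was lower, with a summed level over 11 markers of 129 to 148 FPKM against 65.9 to 70.2 FPKM, and the macrophage receptor gene Csf1r stood at 4.0 ± 0.513 against 1.51 ± 0.148 FPKM (SD, n = 3 each). The lower macrophage marker, named after its values were seen, was Cd14 (5.35 ± 0.463 against 7.43 ± 0.592 FPKM, SD, n = 3 each). Among the higher macrophage markers, Adgre1 (0.723 against 0.288 FPKM), C1qa (2.0 against 0.265 FPKM) and Fcgr1 (1.41 against 0.293 FPKM) reached the filter only through the cisplatin libraries. Platelet markers were mixed, with 1 of 5 tested lower and 1 higher, a summed level of 78.8 to 91.3 FPKM against 89.4 to 119 FPKM, Gp1bb at 0 in every library and Pf4 at 40.7 ± 4.0 against 33.0 ± 6.55 FPKM (SD, n = 3 each; adjusted p = 0.11, limma). For Hpgds, 4 of 6 tested mast-cell and basophil markers were higher, with a summed level over 9 markers of 31.9 to 37.1 FPKM against 13.9 to 18.3 FPKM, Tpsab1 at 0 in every library and Cpa3 at 17.2 ± 0.434 against 6.08 ± 1.16 FPKM (SD, n = 3 each). All 9 B-cell markers were higher, with a summed level of 3617 to 3694 FPKM against 1689 to 1776 FPKM, and the immunoglobulin gene Ighm stood at 3220 ± 46.7 against 1433 ± 38.0 FPKM (SD, n = 3 each). For Ptgis, both tested endothelial markers of 6 listed were lower, with a summed level over the list of 2.34 to 2.78 FPKM against 4.60 to 5.02 FPKM. Among the 4 too low to test, the groups of Kdr, named after its values were seen, did not overlap in the other direction (0.263 against 0.160 FPKM), and the endothelial cadherin gene Cdh5 was near 0 in both groups, at 0.0558 and 0.0731 FPKM. Of 8 neutrophil markers 2 were tested and both were higher, Mpo (1.12 against 0.148 FPKM) and Elane (1.34 against 0.156 FPKM). Both reached the filter only through the cisplatin libraries, so the filter favoured this direction. The other 6 were too low to test, and their groups overlapped. The summed level of the list was 2.85 to 3.65 FPKM against 0.332 to 1.30 FPKM.

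The enzymes were also divided by the summed FPKM of each marker list in the same library, a step added after the data were seen and given as a description. Relative to the summed ID8 markers, every tested enzyme was higher with cisplatin, by 0.20 for Ptgis, 0.70 for Ptgs1, 0.82 for Pla2g4a, 1.26 for Ptgs2 and 1.91 for Ptges on the log2 scale. All were divided by one sum, so their order restates that of the fold changes. Krt19, with 646 of the 1563 to 1635 FPKM in the controls, weighed heavily in it. Set instead against the median change of these markers, -2.32 on the log2 scale, Ptgis was the more negative at -2.57, so its direction depended on the reference. Relative to the T-cell markers the same enzymes differed by -3.21 for Ptgis, -2.70 for Ptgs1, -2.58 for Pla2g4a, -2.15 for Ptgs2 and -1.49 for Ptges. Tbxas1 differed by -0.05 relative to the T-cell markers, by -0.46 relative to the macrophage markers and by 0.84 relative to the platelet markers. Its direction thus depended on the reference as well. Lyz2, at 89.7 FPKM with cisplatin and 30.8 FPKM in the controls, weighed heavily in the macrophage sum.

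The genes whose profile over the 6 libraries was most like that of Ptgs2 were Pak4, Tmem64 and Gabarapl1, with a root mean square difference of 0.0457, 0.0491 and 0.0543 in centred log2(FPKM + 0.1), among the 8422 genes averaging 5 FPKM or more. For Ptges they were Tmem43, Mfsd13a and Tm7sf3, at 0.0398, 0.0428 and 0.0489. Their log2 fold changes were -1.49, -1.52 and -1.57 for the genes near Ptgs2 and -0.75, -0.78 and -0.76 for those near Ptges. Since replicates lay close together, a small difference in profile mostly restates a similar fold change, and shared regulation was not tested.

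**Figure D4:**
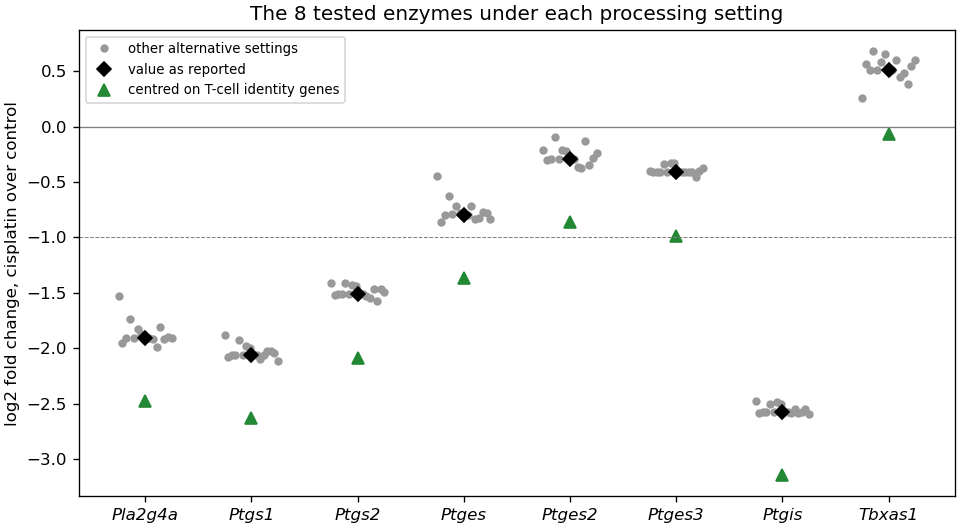
Log2 fold change of cisplatin over control for the 8 tested enzymes as reported (black diamonds), when libraries are centred on the T-cell identity genes (green triangles) and under the other alternative settings (grey points). Pla2g4a, Ptgs1, Ptgs2 and Ptgis stay beyond the dashed 2-fold line under every setting shown, and Tbxas1 reaches -0.06 under the centring.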

How the data were processed

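Poly(A) RNA of 6 T-cell libraries was sequenced. The deposited values are FPKM, which the authors computed from read counts per gene. The study's methods name LifeScope, whereas the submitters' processing notes list fastp, HISAT2 2.0.5, featureCounts 1.5.0-p3 and mm10. The table coordinates of all 10 enzymes equalled those of GENCODE M21 (GRCm38). The table held 0 other sample columns. Strand counting and the treatment of multiply matching reads are not given in the sources used here.

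Whole reads were rebuilt from FPKM and gene length (within 0.1 of a whole number). Replicates were not identical, their reads differing with a chi-square of 5.11 to 5.99 per degree of freedom. The FPKM denominator averaged 1.04 times the reads on genes with cisplatin and 0.980 times in the controls. Floors (3 reads) cover counting error only. The 95% intervals are limma's, from the spread between libraries of the gene itself, combined with that of other genes of similar level. Genes averaging 0.5 FPKM or more were compared with limma 3.58.1 (R 4.3.3, eBayes with trend) on log2(FPKM + 0.1), a scale that understates changes of low genes. Steps were tested on simulated data. Ratios used exact permutation tests in scipy 1.17.1. No source says whether libraries came from separate mice or cultures, so p-values measure the spread between these samples.

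The enzymes and lists were chosen with earlier results of these data known. Named were all 10 enzymes and called pathway genes with Hpgds, Slco2a1, Abcc4, Ptger2 and Ptger4. Also named were a fixed marker per cell type except neutrophils, markers at 0 everywhere, and the 3 nearest profiles to Ptgs2 and Ptges. Other pathway genes and markers were named after their values were seen. Promoters of 9 of the 10 enzymes were matched by symbol in a RefSeq table (GRCm38.p6). Alternatives were other pseudocounts (1 and 0.01), filters, scalings, voom on rebuilt reads (a minimum of 10 in 3 or more libraries), no variance trend, a replicate block and leaving out each library.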

Additional observations from a re-analysis of the deposited data

How the results depend on the processing

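The 4 called enzymes were called under every alternative in which they were tested, with log2 fold changes from -3.15 to -2.48 for Ptgis, -2.63 to -1.88 for Ptgs1, -2.48 to -1.53 for Pla2g4a and -2.09 to -1.41 for Ptgs2. Ptges ranged from -1.37 to -0.45 and was called in 1 of 16 alternatives, the centring on T-cell identity genes, under which Ptges2 passed as well (-0.86, adjusted p = 0.0019, limma). Tbxas1 reversed there, to -0.06. Quantile normalization, voom and no variance trend each made 1 enzyme higher at the adjusted p-value, which was Tbxas1. The cause of these changes was not tested. The centring, which assumes that T-cell genes did not change, moved the median of all genes from 0.03 to -0.55, and quantile normalization moved it to 0.16.

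Over all genes, the centring gave 10473 lower and 758 higher at the adjusted p-value and 3730 called lower and 141 called higher. The 8422 genes averaging 5 FPKM or more gave 2893 lower, 903 called lower and 242 called higher. Called higher were 311 genes with log2(FPKM + 1) and 1128 with voom, against 653 as reported. Of the other pathway genes, called higher were 1 with log2(FPKM + 1), 1 above 5 FPKM, 4 with quantile normalization, 4 with voom and 0 with the centring, which also gave 3 higher at the adjusted p-value and 11 called lower. Above 5 FPKM, 6 were higher and 2 called lower, of 15 tested. Calls of Hpgds, Ptger2, Daglb and Pla2g3 were lost only through the 2-fold minimum, in 2, 1, 2 and 1 alternatives.

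Leaving out each library in turn kept 6 enzymes lower and 4 called lower. Over all genes it gave 4238 to 4364 lower, 3770 to 3988 higher, 1963 to 2045 called lower and 579 to 692 called higher. For other pathway genes it gave 11 to 12 lower, 8 to 11 higher, 6 called lower and 2 to 3 called higher. Ratio changes were 0.45 to 0.62 (Ptgs2 over Ptgs1), -0.69 to -0.36 (Ptges over Ptges2), -0.46 to -0.31 (Ptges over Ptges3), -1.36 to -0.94 (Ptges over Hpgd) and -1.86 to -1.72 (Ptgis over Ptges). Abcc4 passed without control replicate 2 (-0.23, adjusted p = 0.02, limma), as it did above 5 FPKM (-0.18, adjusted p = 0.044) and with the centring (-0.75, adjusted p = 7.2e-05).

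With the replicate number as a block, 6 enzymes were lower, 4 were called lower and none was called higher, and over all genes 4417 were lower, 4147 higher, 2011 called lower and 651 called higher. The numbers did not pair the libraries, since deviations of same-numbered libraries correlated at 0.023, -0.063 and -0.021, and not every library correlated best with its own number. Having 3 libraries a group and 89 to 338 reads per library limit what can be said of Ptges and Tbxas1, and a handful of reads that of Ptgds and Hpgd.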
